A study of Mus musculus with 4 samples.

Results

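Ifi44 and Ifi44l are neighbouring genes on mouse chromosome 3, and they were chosen from measured values in these samples because both were far higher in CaMKK2 KO than in WT cells. They are 2 of the 31253 genes counted, and they were found by an exact match of the gene symbol (Ifi44, ENSMUSG00000028037, and Ifi44l, ENSMUSG00000039146). Live CD45+ immune cells came from the hemisphere that bore a CT2a tumor, in 4 WT mice and 4 CaMKK2 KO mice, and were sorted on day 14 after the glioma cells were placed in the brain. CT2a is a glioma line syngeneic to C57BL/6, and both groups carried the same tumor with no further treatment. Among its mice the study lists C57BL/6J animals bought at 6 to 8 weeks of age. It does not say whether the WT mice of this experiment were these. Its reporting summary says that mice for untreated experiments were drawn at random from matched breeding cohorts. The CaMKK2 KO mice lacked the gene from the germline in all cells and came from another laboratory's colony on, or backcrossed to, the C57BL/6 background. The study's methods describe age-matched females of 8 to 12 weeks for its experiments, and do not say that the WT mice were littermates. The cells of each mouse carried 1 hashtag antibody, and each genotype filled a 10X channel of its own. Genotype and channel thus cannot be told apart, and any difference between colonies cannot be told apart from them. Since the genotype difference of the pair was the reason for choosing it, that difference is described here without a test.

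The products of both genes are interferon-induced proteins found in the cytoplasm. Type I interferons bind the receptor IFNAR, and the signal from it leads to binding of interferon-stimulated response elements in front of target genes. Ifi44l carries the synonym H28 in RefSeq, the name of a minor histocompatibility antigen, a kind of peptide antigen that differs between inbred mouse strains. FKBP5, a cochaperone, is a reported binding partner of both proteins. Interferon-gamma acts through the receptor IFNGR and drives a partly overlapping set of genes, among them Ciita, the activator of MHC class II genes.

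After removal of hashtag doublets, hashtag-negative barcodes, outlying cells and the highest doublet scores, 10687 cells remained, 5085 from WT and 5602 from CaMKK2 KO mice. Each mouse gave 1015 to 1655 cells and 11842021 to 20232804 UMIs. Median UMIs per cell were 12611 in WT and 11456 in CaMKK2 KO mice, and 42 barcodes occurred in both libraries. Camkk2 itself, given as UMIs per 1000000 UMIs (CPM) over all cells, was 27.7, 29.5, 39.1 and 27.9 in WT mice 1 to 4 and 14.6, 18.6, 13.2 and 22.6 in CaMKK2 KO mice 1 to 4. The genotypes did not overlap, in the direction of the labels, although Camkk2 UMIs were still counted in CaMKK2 KO cells. Which part of the gene is deleted is not given in the sources used here, and 3′ reads outside it would still be counted. Mouse numbers name hashtags within a genotype and do not pair WT with CaMKK2 KO mice.

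In GENCODE M21 (GRCm38), Ifi44 lay at chr3:151730922-151749960 and Ifi44l at chr3:151758737-151762892, both on the minus strand. The gap between them was 8776 bases and held no other annotated gene, and no gene overlapped either one. Ifi44 had 4 transcripts, of which the protein-coding one had 8 exons and 2910 bases. Ifi44l had 1 transcript of 3 exons and 1376 bases, and GENCODE tagged the gene as a reference genome error. The transcripts of the pair shared no 31-base word with each other. In the last 400 bases of their transcripts, where 3′ reads fall, neither shared a 31-base word with any other gene. Over whole transcripts, 15 of 6260 such words of Ifi44 were found in 1420 other genes, and 0 of 1346 of Ifi44l were found in any. Shorter stretches and matches with mismatches were not searched.

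The promoter windows are shown because the pair moved together between genotypes and across cells. They were taken from RefSeq (GRCm38.p6) and cover 250 bases before and 50 after the RefSeq start of each gene, printed 5′ to 3′ on the minus strand. The Ifi44 window is chr3:151749861-151750160 and the Ifi44l window is chr3:151762842-151763141. Capitals mark a stretch with 2 overlapping matches to spellings added after the windows had been read. They differ in spacing from the interferon-element-like spelling given below, which was in neither window.

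Ifi44: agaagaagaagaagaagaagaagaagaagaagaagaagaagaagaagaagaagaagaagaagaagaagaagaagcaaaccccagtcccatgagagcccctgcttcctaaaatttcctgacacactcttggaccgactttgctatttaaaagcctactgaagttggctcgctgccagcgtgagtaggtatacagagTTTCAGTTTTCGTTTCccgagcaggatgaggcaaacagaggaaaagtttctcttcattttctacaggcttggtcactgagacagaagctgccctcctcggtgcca

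Ifi44l: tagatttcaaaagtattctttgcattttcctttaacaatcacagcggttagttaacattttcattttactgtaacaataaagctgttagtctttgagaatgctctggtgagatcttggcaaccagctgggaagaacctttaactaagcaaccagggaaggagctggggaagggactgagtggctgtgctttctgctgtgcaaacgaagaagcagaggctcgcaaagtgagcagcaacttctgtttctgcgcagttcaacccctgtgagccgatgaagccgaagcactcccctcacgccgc

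Motifs were searched on both strands, with N for any base. The interferon-element-like spelling GAAANNGAAA was in neither window. It was in 3.44% of all 32851 RefSeq windows of this length and in 46.7% of the 45 windows of the type I interferon genes listed below. The spelling GAAANGAAA, added after the windows had been read, was in the Ifi44 window at bases -48 to -40 from the start, as TTTCGTTTC. It was in 3.17% of all windows and in 26.7% of those of the type I list. GAAANNNGAAA, added likewise, was in the Ifi44 window at -55 to -45, as TTTCAGTTTTC, overlapping the first by part of its length, and was in 2.75% of all windows and 20.0% of those of the list. By the GENCODE start of the protein-coding transcript, which lies upstream of the RefSeq one, the first of these matches lies inside its first exon and the second spans its start. None of the 3 spellings was in the Ifi44l window, which says only that these letters are not in it.

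In the unfiltered data Ifi44l was not counted once in WT cells and was common in CaMKK2 KO cells. Ifi44l had 0 UMIs in 6689 WT barcodes with 97819218 UMIs in all, which allows a share of up to 0.0448% of barcodes. The CaMKK2 KO barcodes held 14196 Ifi44l UMIs in 3563 of 7271 barcodes. Ifi44 had 1822 UMIs in 844 WT barcodes and 29479 UMIs in 4188 CaMKK2 KO barcodes. Ifi44 was thus counted in WT cells at a low level and Ifi44l was not. Whether reads of the Ifi44l copy carried by the WT mice could be counted, at a gene tagged as a reference genome error, was not tested. Any difference between colonies at this locus cannot be told apart from one between genotypes. Such limits, and the intervals given below, cover counting error only.

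Over the cells kept, Ifi44 was at 8.36, 23.4, 23.6 and 23.7 CPM in WT mice 1 to 4, a mean of 19.8 ± 7.61 (SD, n = 4). In CaMKK2 KO mice 1 to 4 it was at 321.9, 394.4, 169.2 and 586.7 CPM, a mean of 368 ± 173 (SD, n = 4). Every CaMKK2 KO mouse lay above every WT mouse, with CaMKK2 KO mouse 3 the lowest and mouse 4 the highest of their genotype. Ifi44l was at 0 in the 4 WT mice and at 160.2, 193.0, 77.3 and 276.0 CPM in CaMKK2 KO mice 1 to 4, a mean of 177 ± 82.2 (SD, n = 4). Mice 3 and 4 were again the ends of the range. By UMIs summed over all cells, Ifi44 was 17.0-fold higher in CaMKK2 KO, and Ifi44l was at least 3781-fold higher, when its WT level is set to 3 counts over the whole WT group.

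The share of cells with at least 1 UMI gave the same picture. For Ifi44 it was 12.4% of WT cells (95% Wilson interval 11.5 to 13.3) and 60.2% of CaMKK2 KO cells (58.9 to 61.4). For Ifi44l it was 0 of 5085 WT cells, which allows up to 0.0590%, and 51.2% of CaMKK2 KO cells. After each cell was thinned to 3000 UMIs, these shares were 4.26% and 42.3% for Ifi44 and 0 and 29.0% for Ifi44l. The intervals and the limit pool cells over mice and cover counting error only, not the spread between mice. Before thinning, the Ifi44 share of single mice ranged from 7.39% to 14.6% in WT and from 48.4% to 71.2% in CaMKK2 KO.

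Cells were placed in 13 classes by scores of marker genes. Of these, 5 had enough cells in every mouse for a fit, namely classical monocytes, macrophages, microglia, NK cells and T cells. Ly6c2 and Ccr2 are among the markers of classical monocytes, C1qa and Mertk of macrophages, Tmem119 and P2ry12 of microglia, Ncr1 and Klrb1c of NK cells, and Cd3e and Trac of T cells. Among these 5 classes, both genes were highest in monocytes and lowest in T cells in CaMKK2 KO mice. In WT mice Ifi44 was lowest in T cells, and Ifi44l was at 0 in every class. In all 5, no CaMKK2 KO mouse overlapped a WT mouse for either gene. The pair was chosen for this difference, and the share of all genes without overlap is not given, so this is a description.

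In classical monocytes, the blood-derived cells that precede tumor macrophages, Ifi44 was at 9.06, 13.1, 14.9 and 23.5 CPM in WT mice 1 to 4 and at 681, 699, 406 and 890 CPM in CaMKK2 KO mice 1 to 4. WT mice kept within a narrow low range, and the lowest CaMKK2 KO mouse was far above it. The means were 15.1 ± 6.08 and 669 ± 199 CPM (SD, n = 4 each), a log2 fold change of 5.42 ± 0.32 (SE) in the edgeR fit. Ifi44l was at 342, 362, 189.8 and 435 CPM in CaMKK2 KO mice 1 to 4 and at 0 in WT, at least 1021-fold higher. Of CaMKK2 KO monocytes, 92.6% had an Ifi44 UMI and 87.1% an Ifi44l UMI, against 8.68% and 0 of WT monocytes. Clusters computed without the pair and the genes of the type I and interferon-gamma-leaning lists given below split this class by genotype. Interferon-induced genes outside these lists were not left out, and Ifi202b was among the leading genes of cluster 23. Of WT monocytes 63.7% were in cluster 2 and 21.3% in cluster 1, and of CaMKK2 KO monocytes 50.4% were in cluster 23 and 36.5% in cluster 24. The part of this difference in cell state in the values of the pair was not tested.

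In macrophages, Ifi44 was at 6.57, 31.3, 28.4 and 20.6 CPM in WT mice 1 to 4 and at 316, 419, 209 and 587 CPM in CaMKK2 KO mice 1 to 4. The spread between mice was wider on both sides than in monocytes, relative to the means, yet the genotypes stood apart. The means were 21.7 ± 11.1 and 383 ± 161 CPM (SD, n = 4 each), a log2 fold change of 4.15 ± 0.48 (SE). As in monocytes, different clusters held most of the class. Of WT macrophages 49.9% were in cluster 0 and 32.3% in cluster 1, and of CaMKK2 KO macrophages 64.5% were in cluster 24, which held 0.805% of WT macrophages, and 21.3% in cluster 0. Ifi44l was at 159, 187, 99.7 and 260.0 CPM in CaMKK2 KO mice 1 to 4, at least 1559-fold above WT. CaMKK2 KO mouse 3 was lowest and mouse 4 highest for both genes, as in monocytes.

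In microglia, the resident macrophages of the brain, Ifi44 was at 1.27, 16.5, 27.1 and 4.61 CPM in WT mice 1 to 4, with 3 to 28 UMIs per mouse. It was at 355, 271, 257 and 256 CPM in CaMKK2 KO mice 1 to 4. Here mouse 1, not mouse 4, was the highest CaMKK2 KO mouse, and the other 3 lay close together. The means were 12.4 ± 11.8 and 285 ± 47.4 CPM (SD, n = 4 each), a log2 fold change of 4.81 ± 0.48 (SE). Ifi44l was at 143, 149.7, 117 and 120.1 CPM in CaMKK2 KO mice 1 to 4, at least 224-fold above WT.

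NK cells showed the pair at a lower level. Ifi44 was at 4.51, 15.9, 22.8 and 27.7 CPM in WT mice 1 to 4 and at 77.1, 108, 73.8 and 120.3 CPM in CaMKK2 KO mice 1 to 4. The lowest CaMKK2 KO mouse was above the highest WT mouse, and the gap was narrower than in the myeloid classes. The means were 17.7 ± 10.1 and 94.8 ± 23.0 CPM (SD, n = 4 each), a log2 fold change of 2.30 ± 0.29 (SE). Ifi44l was at 21.9, 27.7, 16.8 and 38.1 CPM in CaMKK2 KO mice 1 to 4, at least 46.1-fold above WT.

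Among the 5 classes, T cells had the lowest levels of Ifi44 in both genotypes and of Ifi44l in CaMKK2 KO mice. Ifi44 was at 0, 5.45, 1.83 and 3.89 CPM in WT mice 1 to 4, with at most 11 UMIs in a mouse, and at 9.32, 8.73, 10.5 and 26.2 CPM in CaMKK2 KO mice 1 to 4. The genotypes did not overlap, but they were close, and CaMKK2 KO mouse 4 stood above the other 3. The ratio of the mean CPM was 2.29 on the log2 scale. It replaced the fitted value, since Ifi44 had fewer than 200 UMIs in the class. Ifi44l had 31 UMIs in 898 CaMKK2 KO T cells, at 3.39, 1.66, 1.99 and 10.5 CPM in mice 1 to 4. C1qa, a macrophage gene that T cells should lack, stood in CaMKK2 KO T cells at 2.98% of its level over all cells, and Ifi44 and Ifi44l stood there at 3.40% and 1.99% of theirs. By this 1 benchmark gene, the shares of the pair in CaMKK2 KO T cells were of the size of that of C1qa. In CaMKK2 KO mouse 4, the 30 Ifi44 UMIs lay in 10 T cells and the 12 Ifi44l UMIs in 4. Whether these UMIs came from free RNA was not tested. In WT T cells, Ifi44 stood at 17.4% of its level over all cells, from 24 UMIs. C1qa stood there at 1.84%, so Ifi44 was above the C1qa share. In CaMKK2 KO NK cells C1qa was at 1.39%, Ifi44 at 25.5% and Ifi44l at 13.7%. In CaMKK2 KO B cells C1qa was at 1.90%, Ifi44 at 41.2% and Ifi44l at 29.1%. The pair in these 2 classes was above the C1qa share.

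**Figure D1:**
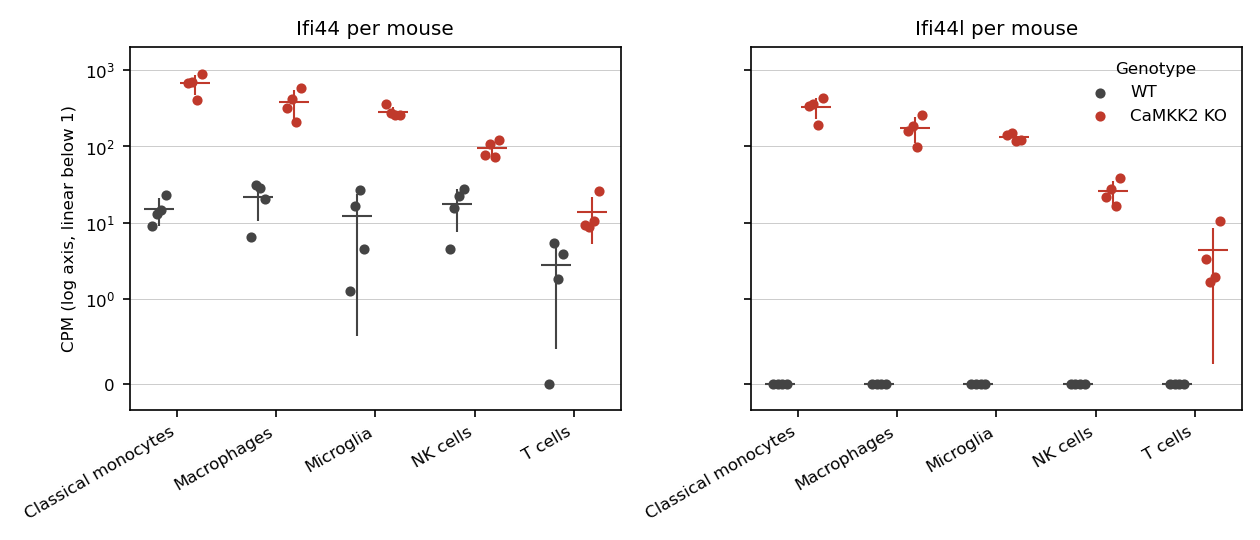
Level of Ifi44 (left) and Ifi44l (right) in CPM, on a log axis that is linear below 1, in 5 immune classes. Points are mice, 4 per genotype, horizontal bars are means and vertical bars the SD. Every CaMKK2 KO mouse lies above every WT mouse of its class, and Ifi44l is at 0 in all WT mice.

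Rarer classes were described by sums over mice, since at least 1 mouse of a genotype gave fewer than 20 cells. Among WT classes the highest Ifi44 sums were those of plasmacytoid dendritic cells, specialised producers of type I interferon, at 101.5 CPM from 37 UMIs, and of cDC1, the dendritic cells that cross-present antigen, at 74.8 CPM. Their counting intervals, 71.5 to 139.9 and 62.4 to 88.8 CPM, overlapped. In CaMKK2 KO mice these classes were at 369 and 354 CPM, 3.64-fold and 4.74-fold higher than in WT. The cDC2 class went from 25.5 to 299 CPM, 11.7-fold. WT cDC1 were at 63.5, 77.8, 106 and 61.7 CPM in mice 1 to 4 and CaMKK2 KO cDC1 at 491, 236, 346 and 335 CPM, without overlap. These values rest on few cells, 17, 17, 18 and 31 in the WT mice and 12, 14, 16 and 4 in the CaMKK2 KO mice.

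B cells went from 1.43 CPM, a single UMI in 171 WT cells, to 141 CPM in 193 CaMKK2 KO cells. The CaMKK2 KO mice 1 to 4 were at 83.3, 83.8, 31.7 and 248 CPM, so 1 mouse held most of this signal. Non-classical monocytes, the patrolling monocytes of the blood, went from 2.92 CPM, also 1 UMI, to 163 CPM, and mature dendritic cells from 8.29 to 109 CPM. Ifi44l was at least 131-fold higher in CaMKK2 KO cDC1, 145-fold in cDC2, 16.4-fold in plasmacytoid dendritic cells, 13.1-fold in mature dendritic cells, 11.2-fold in B cells and 8.76-fold in non-classical monocytes. Neutrophils of CaMKK2 KO mice, and their joint class of basophils and mast cells, had no UMI of either gene, in 18 and 12 cells. This allows shares of cells with a UMI of up to 16.7% and 25.0%. The upper 95% limits of the summed levels were 54.6 and 39.4 CPM, which cover counting error only and rest on few cells.

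The order of Ifi44 sums in CaMKK2 KO was classical monocytes at 720 CPM, then plasmacytoid dendritic cells, cDC1, macrophages at 336, cDC2 at 299 and microglia at 279.6 CPM, then non-classical monocytes, B cells, mature dendritic cells, NK cells at 87.5 CPM and T cells at 11.7 CPM. Over mice, macrophages and microglia did not differ beyond their spread, nor did B cells and NK cells. Over all 19 clusters with at least 20 cells of each genotype, Ifi44 was higher in CaMKK2 KO in 19. In the 16 of these with more than 3 WT UMIs the fold ranged from 1.03, in a T cell cluster, to 66.9, in a monocyte cluster with 4 WT UMIs, with a median of 10.0.

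In CaMKK2 KO cells the ratio of the pair was alike in the larger myeloid classes and differed in some of the others. Over all cells there were 0.498, 0.489, 0.457 and 0.470 Ifi44l UMIs per Ifi44 UMI in mice 1 to 4, although the level of Ifi44 differed widely between these mice. By sums, the ratio was 0.501 in classical monocytes, 0.497 in cDC2, 0.470 in macrophages and 0.461 in microglia. Mice ranged from 0.468 to 0.518 in monocytes, from 0.443 to 0.503 in macrophages, from 0.402 to 0.551 in microglia and from 0.424 to 0.614 in cDC2. Non-classical monocytes had 0.471 by sums and plasmacytoid dendritic cells 0.366, from 157 and 183 Ifi44 UMIs. The ratio was 0.644 in cDC1, with 0.732, 0.623 and 0.600 in the mice with at least 50 Ifi44 UMIs. NK cells had 0.284, 0.256, 0.227 and 0.317 in mice 1 to 4, all below the macrophages of every mouse, the lowest of which was at 0.443. The ratio depends on how well each gene is captured and is not a ratio of transcript numbers.

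**Figure D2:**
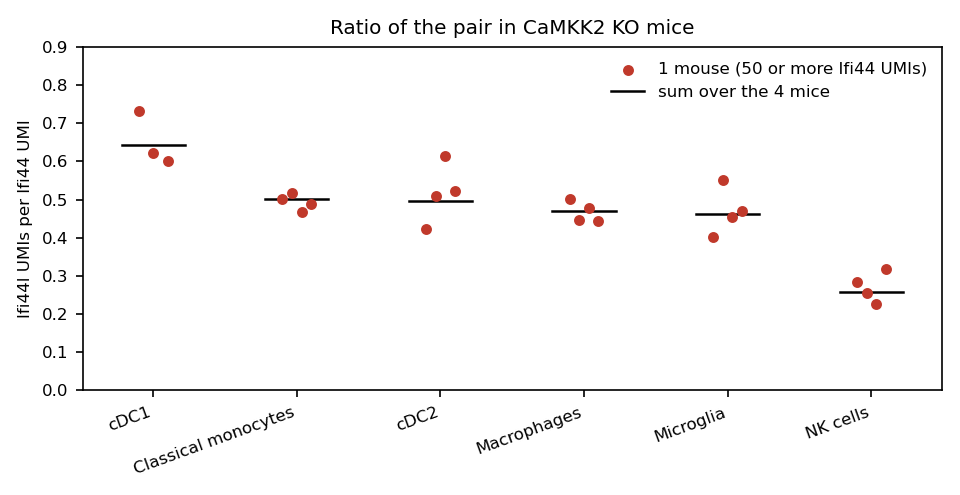
Ifi44l UMIs per Ifi44 UMI in CaMKK2 KO mice, by class. Points are mice with at least 50 Ifi44 UMIs and lines are sums over the 4 mice. Monocytes, cDC2, macrophages and microglia have sums between 0.461 and 0.501, cDC1 lie above and NK cells below.

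Cells with Ifi44l had Ifi44 more often than cells without it. With each CaMKK2 KO cell thinned to 3000 UMIs, 76.1% of cells with Ifi44l also had Ifi44, against 28.5% of cells without it. Both genes were found in 1193 cells, Ifi44 alone in 1093 and Ifi44l alone in 374, of 5398 cells. Within classical monocytes these shares were 86.1% and 62.3%, within macrophages 66.1% and 42.4%, and within NK cells 35.8% and 13.5%. The cells share their library and mouse, so these are descriptions.

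Other interferon-induced genes gave a scale on which to read Ifi44. The type I list held 50 targets without the pair, of which 48 were found in the files, such as Isg15, a ubiquitin-like modifier, Ifit3 and Rsad2, antiviral effectors, Irf7, a transcription factor, and Usp18, a brake on the receptor. Their summed level over all cells was 4063, 9471, 12028 and 8537 CPM in WT mice 1 to 4 and 12261, 13810, 8080 and 19573 CPM in CaMKK2 KO mice 1 to 4. These ranges overlapped, since CaMKK2 KO mouse 3 lay below 3 of the 4 WT mice. WT mouse 1 was lowest both in the list and in Ifi44, and CaMKK2 KO mice 3 and 4 were lowest and highest of their genotype in both.

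Per 1000 UMIs of the list, Ifi44 had 2.06, 2.47, 1.96 and 2.78 UMIs in WT mice 1 to 4 and 26.3, 28.6, 20.9 and 30.0 in CaMKK2 KO mice 1 to 4. On this scale the mice of a genotype lay close together and the genotypes far apart. In macrophages the mice ranged from 1.72 to 3.15 in WT and from 23.5 to 34.2 in CaMKK2 KO, and in classical monocytes from 0.70 to 2.12 and from 28.3 to 33.6. Microglia ranged from 0.26 to 2.15 and from 28.0 to 32.9, and NK cells from 1.66 to 7.44 and from 19.0 to 25.9. In T cells the ranges were 0 to 0.89 and 1.04 to 2.46.

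Cells were then grouped by the summed UMIs of the type I list per 10000 of the cell's UMIs. WT and CaMKK2 KO cells with like levels of this list could thus be set side by side. In macrophages with 80 to 160 list UMIs per 10000, the list stood at 11178 CPM in WT cells, against 11227 CPM in CaMKK2 KO cells. Ifi44 was at 35.0, 35.8, 21.4 and 30.4 CPM in those of WT mice 1 to 4 and at 288, 388, 249.7 and 369 CPM in those of CaMKK2 KO mice 1 to 4. The genotypes stood apart at a like level of the type I list, 10.7-fold by sums. The groups were not matched for the interferon-gamma-leaning list. That list was at 2693 CPM over all WT macrophages, against 6179 CPM over all those of CaMKK2 KO mice. Whether Ifi44 differs between genotypes at a like level of that list was not tested.

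The gap held along the scale of the type I list, while Ifi44 was higher the higher this list was in both genotypes. In WT macrophages it was at 2.74, 7.30, 29.2, 75.0 and 199 CPM in the groups with 20 to 40, 40 to 80, 80 to 160, 160 to 320 and over 320 list UMIs per 10000. In CaMKK2 KO macrophages of the same groups it was at 35.5, 107, 313, 750.3 and 1282 CPM. The folds were 12.96, 14.7, 10.7, 10.0 and 6.43. Ifi44l followed in CaMKK2 KO macrophages, at 22.4, 61.0, 157, 325 and 490 CPM, and stayed at 0 in WT macrophages of every group, including the 25 cells with the highest scores.

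In classical monocytes the 3 upper groups gave 10.6, 23.7 and 32.8 CPM in WT and 322, 798 and 1326 CPM in CaMKK2 KO, folds of 30.3, 33.7 and 40.4. In microglia with 80 to 160 list UMIs per 10000, the values were 19.7 and 340.1 CPM, 17.3-fold apart. In NK cells the groups from 20 to 160 differed by 3.87-fold, 5.65-fold and 3.47-fold. T cells with 80 to 160 list UMIs per 10000 went the other way, with 16.2 CPM in WT cells against 8.17 CPM in CaMKK2 KO cells, from 20 UMIs each. Whether free RNA gave part of these UMIs was not tested.

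**Figure D3:**
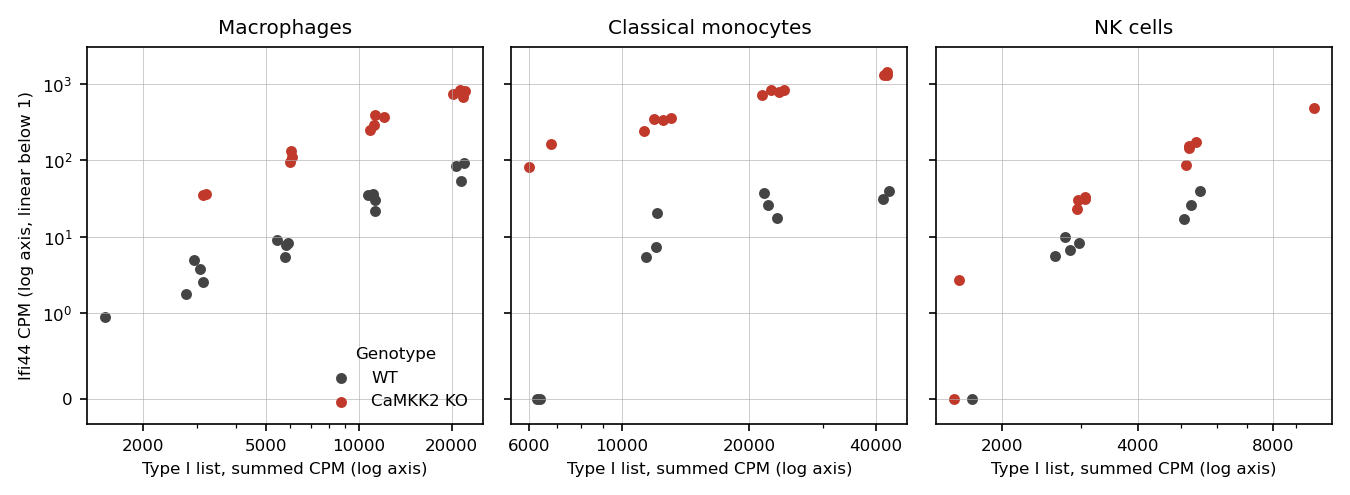
Ifi44 level in CPM (log axis, linear below 1) against the summed CPM of the 48 type I list genes (log axis). Each point is the cells of 1 mouse in 1 score group of at least 20 cells. In macrophages and classical monocytes the CaMKK2 KO points lie above the WT points at every list level, and in NK cells they do so outside the lowest score groups.

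The list itself had smaller fold changes than the pair in the classes where Ifi44 was fitted. Since the pair was chosen for its large difference, this comparison follows from the choice and is a description. Calls were made by edgeR's quasi-likelihood test over mice at a Benjamini-Hochberg adjusted p of 0.05 over all genes tested. None of the 48 list genes tested in macrophages was called, against 1.04% of 9345 genes called higher and 1.66% called lower in CaMKK2 KO, and 7 list genes had an unadjusted p under 0.05, as did 22.0% of all genes. DESeq2 called 2 of the list, Ifi27l2a and Samhd1, both interferon-induced, and 6.78% of all genes. The median log2 fold change of the list was 0.51, that of all genes -0.08, and 46 of the 48 were above 0. Isg15 went from 298 ± 155 to 563 ± 266 CPM (SD, n = 4 each) in macrophages (log2 0.91 ± 0.49 SE, adjusted p = 0.306) and Irf7 from 424 ± 195 to 817 ± 334 CPM (0.95 ± 0.40, adjusted p = 0.207). Ifit3, Rsad2 and Usp18 had smaller log2 fold changes, of 0.39, 0.62 and 0.58, and adjusted p values of 0.612, 0.263 and 0.525. In the same fit Ifi44 ranked 11th of 9345 genes by log2 fold change, a description of the choice.

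Classical monocytes gave 0 calls among 48 list genes, against 0.935% of 7272 genes called higher and 0.853% called lower, with 5 at an unadjusted p under 0.05 (16.0% of all genes) and 0 called by DESeq2 (4.69% of all genes). The list's median was 0.34 and that of all genes -0.01, and 42 of the 48 were above 0. Irf7 there went from 627 ± 256 to 1349 ± 422 CPM, at 1.10 ± 0.34 (SE, adjusted p = 0.146). Isg15 had 0.63 ± 0.62 (adjusted p = 0.670), Rsad2 0.16 ± 0.68 (adjusted p = 0.949) and Ifit3 0.41 ± 0.60 (adjusted p = 0.796). Usp18 had 0.32.

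Microglia gave 0 calls among 41, against 0.605% of 5291 genes called higher and 1.1% called lower, with 3 at an unadjusted p under 0.05 (16.1% of all genes). DESeq2 called 1, Samhd1, and 4.92% of the genes to which it gave an adjusted p, which left out 8 of the list. The list's median was 0.07 and that of all genes -0.12, and 28 of the 41 were above 0. Isg15, Irf7 and Usp18 had log2 fold changes of 0.10, 0.10 and 0.05 in microglia, where Ifi44 had 4.81. Ifit3 had 0.15 there and Rsad2 -0.22. TMM scaling moved the median of all genes in microglia from -0.12 to -0.01.

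T cells gave 0 calls among 42, against 0.884% of 7124 genes called higher and 0.646% called lower, with 12 at an unadjusted p under 0.05 (17.3% of all genes) and 0 called by DESeq2 (2.29% of all genes). The list's median was 0.35 and that of all genes 0.07, and 40 of the 42 were above 0. Isg15 had 0.85 ± 0.37 (SE, adjusted p = 0.266) and Rsad2 0.71 ± 0.34 (adjusted p = 0.301). Ifit3, Irf7 and Usp18 had smaller log2 fold changes, of 0.32, 0.41 and 0.23, and adjusted p values of 0.587, 0.489 and 0.679.

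NK cells gave 2 calls among 40, both higher, against 1.69% of 6451 genes called higher and 0.837% called lower. The list's median there was 0.19 and that of all genes 0.07, and 28 of the 40 were above 0. Isg15, Irf7 and Usp18 had log2 fold changes of 0.41, 0.43 and 0.35, Ifit3 had -0.22 and Rsad2 -0.34, without a call. Ifi27l2a, a small interferon-induced membrane protein, rose from 35.1 ± 16.1 to 101.4 ± 19.6 CPM (log2 1.49 ± 0.24 SE, adjusted p = 0.00354), and Xaf1, a binder of the apoptosis inhibitor XIAP, rose from 59.8 ± 9.69 to 110.1 ± 26.4 CPM (0.82 ± 0.17, adjusted p = 0.0190). The Xaf1 call was lost without WT mouse 2, WT mouse 4 or CaMKK2 KO mouse 2, with adjusted p of up to 0.0749. Without CaMKK2 KO mouse 3 there were 8 calls, all higher. Over all genes that setting gave 581 higher and 202 lower calls among 5649, against 109 and 54 among 6451 with every mouse.

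**Figure D4:**
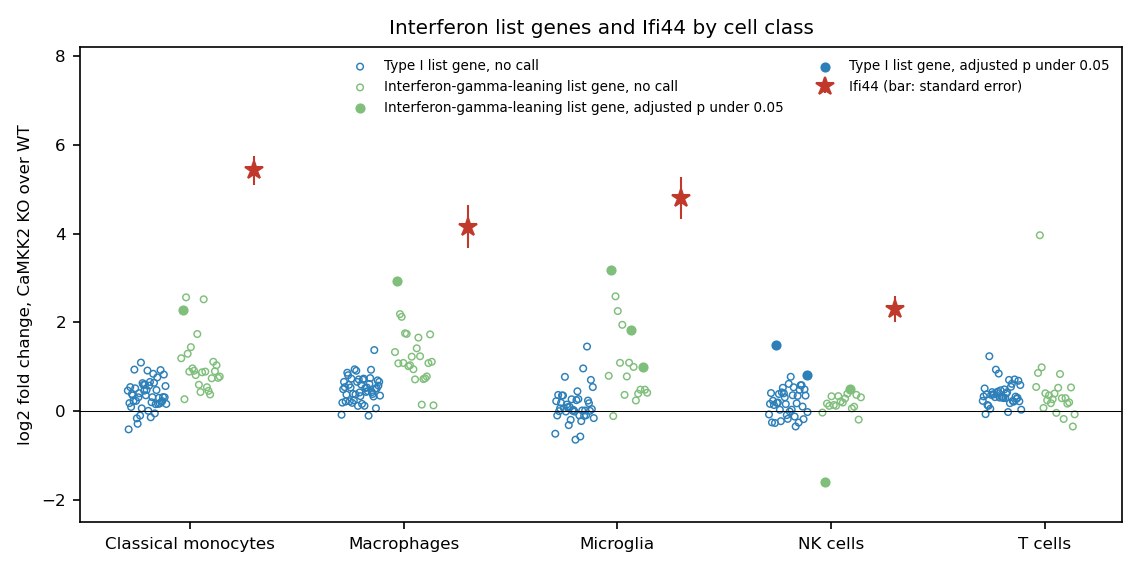
log2 fold change of CaMKK2 KO over WT for each tested gene of the type I and interferon-gamma-leaning lists, with Ifi44 as a star and its standard error. Filled points have an adjusted p under 0.05. Ifi44 lies above every list gene in monocytes, macrophages, microglia and NK cells, and was not fitted in T cells. Ifi44 was chosen for its difference, so its place above the lists is a description.

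Genes that lean to interferon-gamma had larger median fold changes than the type I list in the myeloid classes, a difference that was not tested. Ciita rose in macrophages from 30.1 ± 16.1 to 230.7 ± 59.2 CPM (log2 2.94 ± 0.47 SE, adjusted p = 0.0120), in classical monocytes from 48.5 ± 27.1 to 252 ± 16.4 CPM (2.29 ± 0.33, adjusted p = 0.00762) and in microglia from 10.6 ± 7.23 to 94.2 ± 82.3 CPM (3.19 ± 0.71, adjusted p = 0.0417). It was the only call among 24 listed genes in macrophages and among 25 in monocytes by edgeR, while DESeq2 called 10 in macrophages, Irf1 and 5 Gbp genes among them, and 3 in monocytes. At an unadjusted p under 0.05 there were 16 and 10. The shares of all genes were those given above for the same rules, 6.78% and 4.69% by DESeq2 and 22.0% and 16.0% unadjusted. The monocyte call missed the threshold without WT mouse 2 (adjusted p = 0.0507), and the microglial one was kept in 4 of 10 alternatives. In microglia, Iigp1, an immunity-related GTPase, and Psmb9, an immunoproteasome subunit, rose as well, by 1.84 ± 0.39 (adjusted p = 0.0400) and 1.00 ± 0.20 (adjusted p = 0.0305), 3 calls of 18, and these were kept in 9 and 7 of 13 alternatives. By edgeR, 1.04% of all genes were called higher in macrophages, 0.935% in monocytes and 0.605% in microglia. The medians of the interferon-gamma-leaning list were 1.10 in macrophages, 0.89 in monocytes and 0.90 in microglia.

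In lymphocytes the medians of this list were smaller. T cells had 0 calls of 22 by edgeR and a median of 0.30, with 8 at an unadjusted p under 0.05 and 1 (Iigp1) called by DESeq2. Of all genes in T cells, edgeR called 0.884% higher and 0.646% lower. An unadjusted p under 0.05 was held by 17.3%, and DESeq2 called 2.29%. In NK cells Irf8, a transcription factor, rose by 0.50 ± 0.12 (adjusted p = 0.0331) and Cxcl10, a chemokine, fell from 89.7 ± 39.8 to 28.9 ± 13.6 CPM (-1.60 ± 0.33, adjusted p = 0.0178), among 18 tested with a median of 0.19. Of all genes in NK cells, 1.69% were called higher and 0.837% lower. The Irf8 call was kept in 5 of 13 alternatives and lost under TMM scaling, and the Cxcl10 call was kept in 9 of 13.

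Receptors and signal transducers gave 0 calls in all 5 classes, among 11 to 13 of 15 listed genes tested in each by edgeR. At an unadjusted p under 0.05 there were 4 in macrophages, 2 in microglia, 3 in monocytes, 3 in T cells and 6 in NK cells, where 18.0% of all genes had one, and DESeq2 called 1, Jak2 in macrophages, against 2.95% of all genes in NK cells and the shares above in the other classes. In NK cells Ifnar1 and Ifngr1, a receptor chain each for type I interferon and interferon-gamma, stood nearest to a call, at 0.49 and 0.55 on the log2 scale (adjusted p = 0.0648 and 0.0804). Of the ligands, Ifnb1 had 2, 1, 0 and 5 UMIs in WT mice 1 to 4 and 31, 4, 13 and 1 in CaMKK2 KO mice 1 to 4. The 2 genotypes overlapped, and CaMKK2 KO mouse 4, highest in Ifi44, had a single Ifnb1 UMI. The 7 listed Ifna genes had no UMI, apart from 4 of Ifna2 in CaMKK2 KO mouse 2. Ifng, the ligand with the most UMIs, was at 27.7 ± 18.5 CPM in WT cells, against 56.6 ± 10.2 CPM in CaMKK2 KO cells (SD, n = 4 each). WT mice 1 to 4 were at 2.92, 33.5, 47.1 and 27.3 CPM and CaMKK2 KO mice 1 to 4 at 54.3, 71.6, 50.7 and 49.9 CPM. The genotypes did not overlap, and the share of all genes without overlap is not given. Ifng was tested in T cells (0.72 ± 0.28, adjusted p = 0.202) and NK cells (1.42 ± 0.44, adjusted p = 0.0986) and was not called in either. In both, its unadjusted p was under 0.05, as for 17.3% and 18.0% of all genes.

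Fkbp5 was not called in any class. Over all cells it was at 213, 125, 63.4 and 89.2 CPM in WT mice 1 to 4 and at 80.6, 34.9, 121 and 37.8 CPM in CaMKK2 KO mice 1 to 4. The genotypes overlapped, and CaMKK2 KO mouse 3, lowest in the pair, was highest in Fkbp5. Its log2 fold changes were -0.73 in macrophages, -0.96 in microglia, -0.70 in monocytes, -0.26 in T cells and -0.39 in NK cells.

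The genes most like Ifi44 differed with the level at which likeness was measured. Over the 24 class-by-mouse sums of WT mice (6 classes), the highest Pearson correlations of log2(CPM + 1) were those of Itgax at 0.85, a dendritic cell and macrophage integrin, Fam50a at 0.78, Scimp at 0.78, Sh2d1b1 at 0.77 and Pomp at 0.75, out of 10031 genes. None is on the type I list. Over 1739 single WT macrophages they were Ifit3 at 0.43, Isg15 at 0.42, Ifit2 at 0.40, Phf11b at 0.38 and Ifi209 at 0.37, of which the first 4 are on the list. The points share mice and library. Ifi44 counts were sparse in WT cells, and the effect of this on the correlations was not tested.

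The same measure in CaMKK2 KO cells was added after the values had been seen. The class-by-mouse sums of CaMKK2 KO mice covered the fitted classes and B cells, and those of WT mice the fitted classes and cDC2. The rankings of the genotypes thus rest on different classes. Over 24 class-by-mouse sums, Ifi44l was the gene most like Ifi44, at 0.99 of 9958 genes, and Oasl1 followed at 0.95 for Ifi44 and 0.96 for Ifi44l. Sh3bp2, Zeb2 and Stx7 came next for both. Over 1323 single macrophages, Isg15 at 0.72, Ifi204 at 0.70, Ms4a4c at 0.65, Oasl2 at 0.64 and Oas3 at 0.63 were most like Ifi44. For Ifi44l they were Ifi44 at 0.62, Isg15 at 0.60, Ifi204 at 0.56, Ifit3 at 0.55 and Ms4a4c at 0.54.

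No gene tested within 2000000 bases of the pair was called higher in CaMKK2 KO. Within 2000000 bases there were 53 other annotated genes, 24 of them in the files, and 6 were tested in at least 1 class, in 23 gene and class pairs. Of these 23, 0 were called higher and 1 lower. Over all genes, 0.605% to 1.69% were called higher and 0.646% to 1.66% lower in the 5 classes. All 6 lay on the Ifi44l side of the pair, and the nearest, Dnajb4, was 415619 bases away. The flanking protein-coding genes Ptgfr and Adgrl4 were not among those tested. Dnajb4, a cochaperone, Fubp1, a DNA-binding regulator, Usp33, a deubiquitinase, Zzz3 and Pigk, an enzyme of GPI anchor attachment, had no call, with log2 fold changes from -0.61 to 0.58. St6galnac3, a sialyltransferase 1435374 bases from the pair, fell in T cells from 32.6 ± 4.11 to 5.42 ± 2.98 CPM (-2.70 ± 0.26 SE, adjusted p = 6.74e-05), and this call was kept in all 10 alternatives in which the gene was fitted.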

How the data were processed

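The authors demultiplexed runs with bcl2fastq 2.20, aligned reads to mm10 with Cell Ranger 4.0.0 and STAR 2.7.5c, and deposited raw UMI counts per gene and barcode, with hashtag counts, for 6689 WT and 7271 CaMKK2 KO barcodes, a number of the size of called cells and not of all droplets; the study's later cell filters were not applied. Deposited counts were used as such. Hashtags were assigned to mice with HTODemux (Seurat 5.3.0, quantile 0.99), which left out 667 WT and 508 CaMKK2 KO doublets and 48 and 67 negatives. Cells under 200 genes and outliers by 3 median absolute deviations (scuttle 1.12.0; 744 and 922 cells) were removed, as were the 140 and 168 highest doublet scores (scanpy 1.11.5). Class scores were means over a class's markers of log(1 + UMIs per 10000), each divided by its 99th percentile and capped at 1. The highest score gave the class, with a minimum of 0.2 and a lead of 0.05 set after the data had been seen. Between macrophages and microglia, a cell was placed in microglia where the microglia score was at least 0.2. A total of 425 WT and 405 CaMKK2 KO cells stayed without a class.

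Sums of UMIs over the cells of a mouse in a class entered edgeR 4.0.16 (quasi-likelihood, total counts as library size, at least 200 UMIs per gene, Benjamini-Hochberg over all genes tested), and checked on simulated counts. Folds against 0 used 3 counts over the WT group. Motifs and neighbours used RefSeq and GENCODE M21, which holds 31184 of the 31253 identifiers. Mx1, Mx2, Tmem173 and Mb21d1 were not matched by symbol in the files. Alternatives were TMM scaling, DESeq2 1.42.0, no low-count filter, outlying cells kept, classes from clusters, and each mouse left out. Other software was R 4.3.3, Python 3.11.15, numpy 2.4.6, pandas 2.3.3 and scipy 1.17.1.

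The pair, the gene lists and the tests were chosen with earlier results of these data known. Genes named were the pair, 6 fixed type I genes (1 of them is not reported here), the up to 3 largest called rises and falls per class among the lists, the ligands, Fkbp5, the neighbours and the 5 genes most like the pair. Ifnar1 and Ifngr1 were named after their values had been seen. The study tested single cells with MAST, which was not used because cells are not replicates. The libraries of the study's other experiments were not used here.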

Additional observations from a re-analysis of the deposited data

Results flagged for a closer look

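In groups of 4 mice, a highest or lowest value was marked when its gap to the next, as a share of the group's range, exceeded Dixon's 95% critical value for 4 values. Chance marks about 1 group in 20, and 4 of 56 groups were marked. WT mouse 1 had the lowest Ifi44 level over all cells, 8.36 CPM against 23.4 to 23.7 CPM in the other 3 WT mice, and it was also lowest in the type I list. CaMKK2 KO mouse 1 had the highest microglial Ifi44 level of its genotype, 355 CPM against 256 to 271 CPM. CaMKK2 KO mouse 4 had the highest T cell Ifi44 level, 26.2 CPM against 8.73 to 10.5 CPM, from 30 UMIs. C1qa was also highest in its T cells, at 142 CPM against 66.9, 29.1 and 48.8 CPM in CaMKK2 KO mice 1 to 3. The share of its T cells with a C1qa UMI, 30.9%, lay among those of mice 1 to 3, at 23.6%, 28.8% and 34.8%. WT mouse 3 had the highest Camkk2 level over all cells of the WT mice, 39.1 CPM against 27.7 to 29.5 CPM. What sets these mice apart was not tested.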

How the results depend on the processing

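Of 124 alternative values for the log2 fold changes of the pair, 116 stayed within 1 SD of the mice. DESeq2 was not among these alternatives. For Ifi44l the value without a low-count filter was the reported value itself in every class, so it stayed by construction. Their sign is no sign of stability, since the pair was chosen for it and Ifi44l had no WT UMI. With classes from clusters, Ifi44 in classical monocytes was 6.68 and Ifi44l in microglia 7.59 (at least). With 1 mouse left out, Ifi44 ranged from 3.84 to 4.38 in macrophages, 4.16 to 5.36 in microglia, 5.25 to 5.67 in classical monocytes, 1.77 to 2.84 in T cells and 2.05 to 2.62 in NK cells. The Ifi44l bounds ranged from 10.10 to 10.84, 6.94 to 7.91, 9.11 to 10.08, 2.30 to 3.20 and 4.96 to 5.80 in the same order, and leaving out a WT mouse lowers a bound by its construction. By DESeq2 the interferon-gamma-leaning list had 10 calls in macrophages, against 1 by edgeR, and 3 in classical monocytes, against 1. Calls on the type I list rose to 2 in macrophages and 1 in microglia by DESeq2. Without a low-count filter they were 2 in microglia, 1 in classical monocytes (Irf7), 8 in T cells and 10 in NK cells. Clusters gave 1 in microglia and 1 in classical monocytes (Oas1g), and keeping outlying cells gave 4 in NK cells. With 1 mouse left out they ranged from 0 to 2 in microglia (2 without CaMKK2 KO mouse 3), 0 to 2 in T cells and 1 to 8 in NK cells (8 without CaMKK2 KO mouse 3). All-gene calls without the filter were 380 of 15262 in microglia, 335 of 16021 in monocytes, 575 of 16145 in T cells and 651 of 15264 in NK cells. Clusters gave 103 of 4793 in microglia and 97 of 5749 in monocytes, and outlying cells kept gave 468 of 7096 in NK cells. With 1 mouse left out, all-gene calls ranged from 35 to 119 in microglia, 35 to 159 in T cells and 72 to 783 in NK cells. The causes were not tested. Over all genes, TMM scaling changed the higher and lower calls from 97 and 155 to 124 and 91 in macrophages, from 32 and 58 to 38 and 31 in microglia, from 63 and 46 to 44 and 91 in T cells and from 109 and 54 to 75 and 67 in NK cells. No paired analysis was possible because mouse numbers only name hashtags within a genotype. Microglial and T cell WT values rest on few UMIs, and whether the WT copy of Ifi44l could be counted was not tested.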
